A study of Homo sapiens with 16 samples.

Results

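The response to KANSL2 repression was compared between 2 human multiple myeloma lines, and the genes described here are those whose change depended on the line. Change was the mean of the knockdown libraries minus the mean of the non-targeting libraries, taken inside each line's own expression table, and the interaction was the change in INA6 minus the change in JJN3. Of 28277 gene symbols in the tables, 11137 had a mean of at least 3 in both lines and entered the comparison. The interaction was called for 3342 of them, 30.0% of those tested, at an adjusted p below 0.05. Among these, 435 genes (3.91%) moved in opposite directions, 1156 (10.4%) moved in INA6 only and 997 (8.95%) moved in JJN3 only.

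The messenger RNA libraries came from 4 groups of 3: INA6 with a non-targeting guide, INA6 with KANSL2 knockdown by CRISPR interference, and the same pair in JJN3. All groups were labelled untreated, and 12 of the 16 samples of the series are RNA libraries; the other samples were not analysed here. The labels give neither the guide sequences nor the number of guides, and they do not say whether the 3 libraries of a group came from separate cultures, so the spread behind each p-value may be a technical one. INA6 is a plasma cell line whose growth is known to depend on interleukin 6, and JJN3 is a plasma cell line that grows without added cytokine.

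KANSL2 belongs to the nonspecific lethal (NSL) complex, in which the acetyltransferase KAT8 modifies histone H4 at the promoters of many genes that all cells use. In myeloma, interleukin 6 acts through the receptor subunit gp130 and the kinase JAK1 on the transcription factor STAT3, whose targets include SOCS3, which switches the receptor off, and PIM1. The identity of plasma cells rests on the transcription factors IRF4, PRDM1 and XBP1, on surface receptors such as TNFRSF17, also called BCMA, and on an enlarged endoplasmic reticulum that folds antibody.

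Values are regularised log (rlog) levels on the log2 scale, which are shrunken towards each gene's mean, so changes of weakly expressed genes are understated. Of the genes given below with a called interaction, IFI6, CIITA, LSS, CXCL16, CXCR3, PTPN6, CD69 and DLL4 had a mean below 5 in at least 1 line. The part of that low level in their small change in 1 line was not tested. Levels were not compared between lines, because each table was normalised on its own. The depth of the libraries is unknown. The main axis of variation held 78.7% of the variance in INA6 and 78.9% in JJN3. The positions of single libraries on it are not given here. All 10 plasma cell markers checked passed the minimum level in both lines. The summed linear level of these markers was 126500 to 128700 in the INA6 controls and 89740 to 100900 after knockdown, against 102400 to 105000 and 114500 to 118100 in JJN3. JCHAIN had the highest level of these markers in both lines and so weighed most in the sums. Its means in INA6 were 15.72 and 14.83 by arm. In INA6, IRF4 (13.69 and 13.98) and CD38 (4.90 and 5.15) were higher after knockdown and the other markers lower. Among markers of other cells, 5 B cell markers summed to 206.8 to 224.9 and 209.6 to 229.7 in INA6, most of it from PAX5, and to 70.13 to 75.22 and 100.1 to 108.5 in JJN3, where MS4A1 stood at 5.85 and 6.49 by arm. MS4A1 was listed at 0 in every INA6 library. The summed levels of 4 T and NK cell markers were 76.54 to 80.36 and 74.48 to 77.68 in INA6 and 49.33 to 56.32 and 45.2 to 47.5 in JJN3; CD3D was listed at 0 in JJN3. A marker listed at 0 in every library still adds a constant to a linear sum, and that part is not expression. LYZ, MPO, PDGFRB and LUM were also listed at 0 in JJN3, and LUM in INA6. Sums of 4 myeloid and of 4 stromal markers stayed between 16.11 and 17.85 and between 8.544 and 8.726 in INA6, and between 67.83 and 77.6 and between 2.733 and 2.74 in JJN3. The part of these markers in the results was not tested.

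KANSL2 itself, on chromosome 12 at 48653211 to 48682238 (GRCh38.p14), was repressed to unequal depth. INA6 libraries read 8.06, 8.02 and 8.16 with the non-targeting guide and 7.71, 7.60 and 7.76 after knockdown, which is 76.4% of control. JJN3 libraries read 7.25, 7.24 and 7.19 and 6.00, 5.98 and 6.06, or 43.1% of control. The arms did not overlap in either line, which held in INA6 for 56.3% and in JJN3 for 56.8% of all tested genes, and the falls of −0.39 and −1.21 differed by 0.82 (SE 0.0838, adjusted p = 2.11e-11). Depth of repression and line therefore cannot be told apart in any comparison below. Of the 8 NSL subunits tested, 3 had a positive interaction, meaning a higher change in INA6, and 3 a negative one. The positive ones include the targeted gene KANSL2 itself. That is 75% called, beside 30.0% of all genes. HCFC1, the transcriptional coregulator HCF-1, rose by 0.41 in INA6 and by 0.18 in JJN3 (adjusted p of the difference 0.0018). MCRS1 rose in INA6 only, by 0.31, against 0.044 in JJN3. PHF20 fell in INA6 only (−0.25 against −0.038), and KANSL3 was called the same way (−0.24 against −0.076) but left that class in 13 of 18 alternative settings. OGT, the O-GlcNAc transferase, was at −0.12 in INA6 and 0.18 in JJN3 and left the class of opposite genes in 6 settings.

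The lines shared most of the direction of their responses. In INA6, 2938 of the 11137 genes rose (26.4%) and 2617 fell (23.5%); in JJN3, 2890 rose (25.9%) and 2853 fell (25.6%). Of 3384 genes called in both lines, 2949 had the same sign, 87.1%. Across genes the changes of the 2 lines had a Pearson r of 0.492 and a Spearman correlation of 0.525, given as a description, since genes are not independent replicates. The interaction was positive, meaning a higher change in INA6, for 1733 genes (15.6%) and negative for 1609 (14.4%). No interaction was called for the other 7795 genes (70.0%). The arms, of 3 libraries each, were fully separate for 6266 genes in INA6 (56.3%) and 6330 in JJN3 (56.8%), and for 616 genes (5.53%) they were separate in both lines while the changes had opposite signs, so separate arms in 1 line are common among all genes. Most called interactions were small: the median absolute difference was 0.277, 319 genes reached 0.5 and 23 reached 1. The median change of all tested genes was 0.009 in INA6 and 0.003 in JJN3, the level against which the gene lists below are read.

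**Figure D1:**
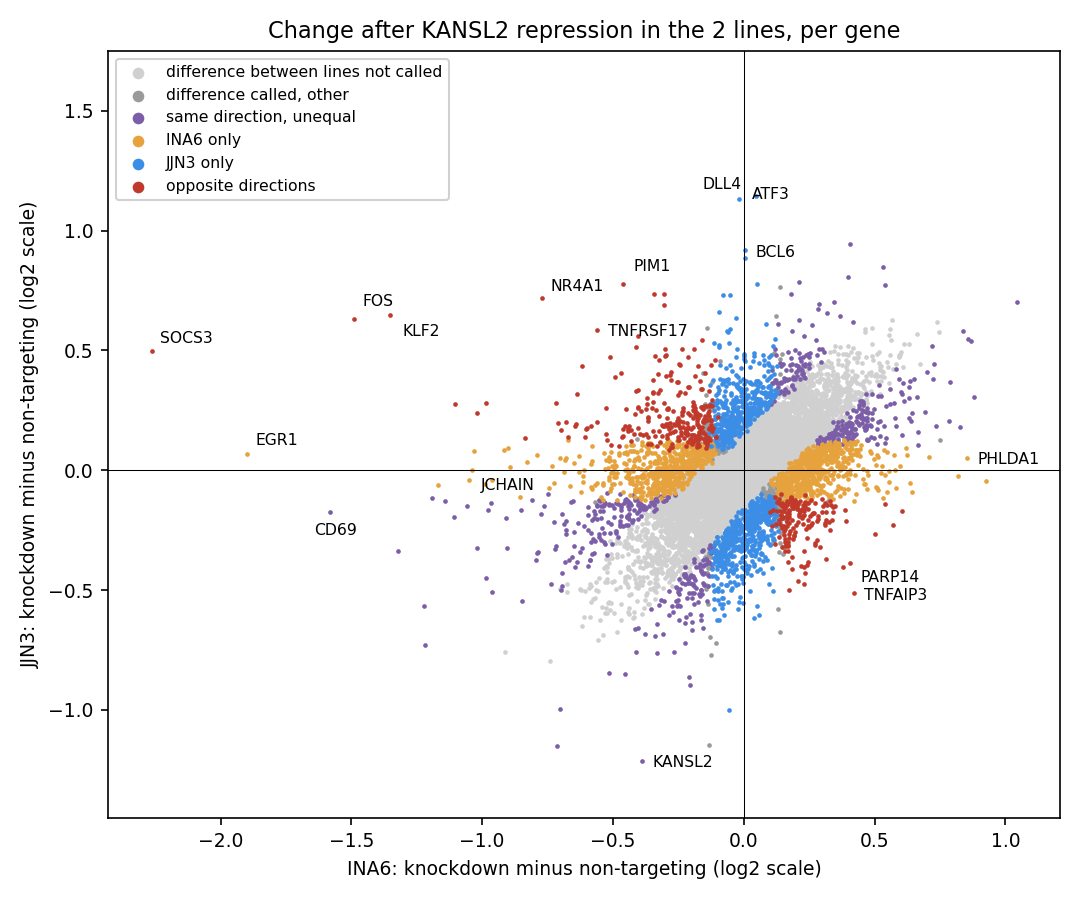
Change in JJN3 (vertical axis, log2 scale) against change in INA6 (horizontal axis, log2 scale) for 11137 genes, 1 point per gene, coloured by class. SOCS3, FOS and KLF2 lie far left above 0, EGR1 and JCHAIN lie left near 0, and ATF3, DLL4 and BCL6 lie near 0 on the horizontal axis and at 0.92 to 1.15 on the vertical axis.

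A gene was placed among those with opposite directions when its change was called in each line, with opposite signs, and its interaction was called. INA6 fell and JJN3 rose for 266 genes (2.39%), and the reverse held for 169 (1.52%). The first set held the larger changes. The genes named by size of change in this class were chosen with separate arms in both lines. Their separate arms, given below, are part of that choice and add no evidence. SOCS3, FOS, KLF2, NR4A1, PIM1 and TNFRSF17 are described first.

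SOCS3, the feedback inhibitor of cytokine receptors that signal through JAK kinases (chromosome 17, 78356778 to 78360925), had the widest opposite response among the genes named. INA6 controls read 12.82, 13.02 and 12.89 and knockdown libraries 10.68, 10.52 and 10.74. JJN3 controls read 10.51, 10.16 and 10.01 and knockdown libraries 10.81, 10.61 and 10.75. Every INA6 knockdown library lay more than 2 units below the lowest control, whereas in JJN3 the knockdown libraries lay just above the highest control. The changes were −2.26 (SE 0.0545) and 0.50 (SE 0.0703), a difference of −2.76 (adjusted p = 3.28e-31). SOCS3 overlaps a divergent transcript, SOCS3-DT, from which its reads cannot be told apart without knowledge of strand.

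FOS, a subunit of the AP-1 transcription factor (chromosome 14, 75278828 to 75282230), went the same way. Its levels were 11.06, 11.17 and 11.22 in INA6 controls and 9.56, 9.57 and 9.85 after knockdown. In JJN3 they were 9.46, 9.16 and 9.08 and 10.15, 9.76 and 9.69. Arms were separate in both lines, with replicate 1 the highest of both arms in JJN3, and the changes were −1.49 and 0.63 (difference −2.12, adjusted p = 1.5e-23). KLF2, a zinc finger factor that restrains lymphocyte activation and guides plasma cell homing (chromosome 19, 16324826 to 16328685), read 11.14, 11.17 and 11.15 in INA6 controls and 9.97, 9.49 and 9.94 after knockdown. In JJN3 its levels were 9.14, 8.93 and 8.99 and 9.68, 9.57 and 9.76. The INA6 fall of −1.35 was spread by 1 library, knockdown replicate 2, which was lowest, and the JJN3 rise was 0.65 (difference −2.00, adjusted p = 1.5e-23). NR4A1, an orphan nuclear receptor induced early after stimulation, had the same low INA6 library: its levels were 9.60, 9.62 and 9.58 against 9.00, 8.50 and 8.99 in INA6. JJN3 libraries read 7.65, 7.52 and 7.37 against 8.35, 8.01 and 8.33. The fall of −0.77 and the rise of 0.72 differed by −1.49 (adjusted p = 1.03e-15).

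PIM1, a serine/threonine kinase that promotes survival and is a STAT3 and STAT5 target (chromosome 6, 37170152 to 37175428), had tight replicates. INA6 libraries read 10.91, 11.06 and 10.90 without and 10.44, 10.48 and 10.56 with KANSL2 repression. JJN3 libraries read 11.18, 11.09 and 11.09 and 11.89, 11.89 and 11.93. It fell by 0.46 in INA6 and rose by 0.78 in JJN3, so the larger of the opposite movements was in JJN3 (difference −1.24, SE 0.0636, adjusted p = 3.42e-22). TNFRSF17, the receptor for BAFF and APRIL on plasma cells and a target of myeloma immunotherapy (chromosome 16, 11965210 to 11968068), moved by almost equal amounts in opposite directions. Its INA6 levels were 12.16, 12.19 and 12.20 and 11.72, 11.55 and 11.61, and its JJN3 levels were 11.13, 11.10 and 11.15 and 11.68, 11.69 and 11.76. No arms overlapped, and changes of −0.56 and 0.58 gave a difference of −1.14 (adjusted p = 8.71e-22). Of the other genes named in this direction, SGK1, a kinase of ion transport and survival, changed by −0.40 and 0.56 in INA6 and JJN3, SULF2, an extracellular sulfatase, by −0.51 and 0.47, and the linker histone H1-2 by −0.49 and 0.39. The keratin KRT8 changed by −0.62 and 0.44, the galectin LGALS1 by −0.41 and 0.51, and TXNDC11, a thioredoxin domain protein of the endoplasmic reticulum, by −0.47 and 0.41.

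**Figure D2:**
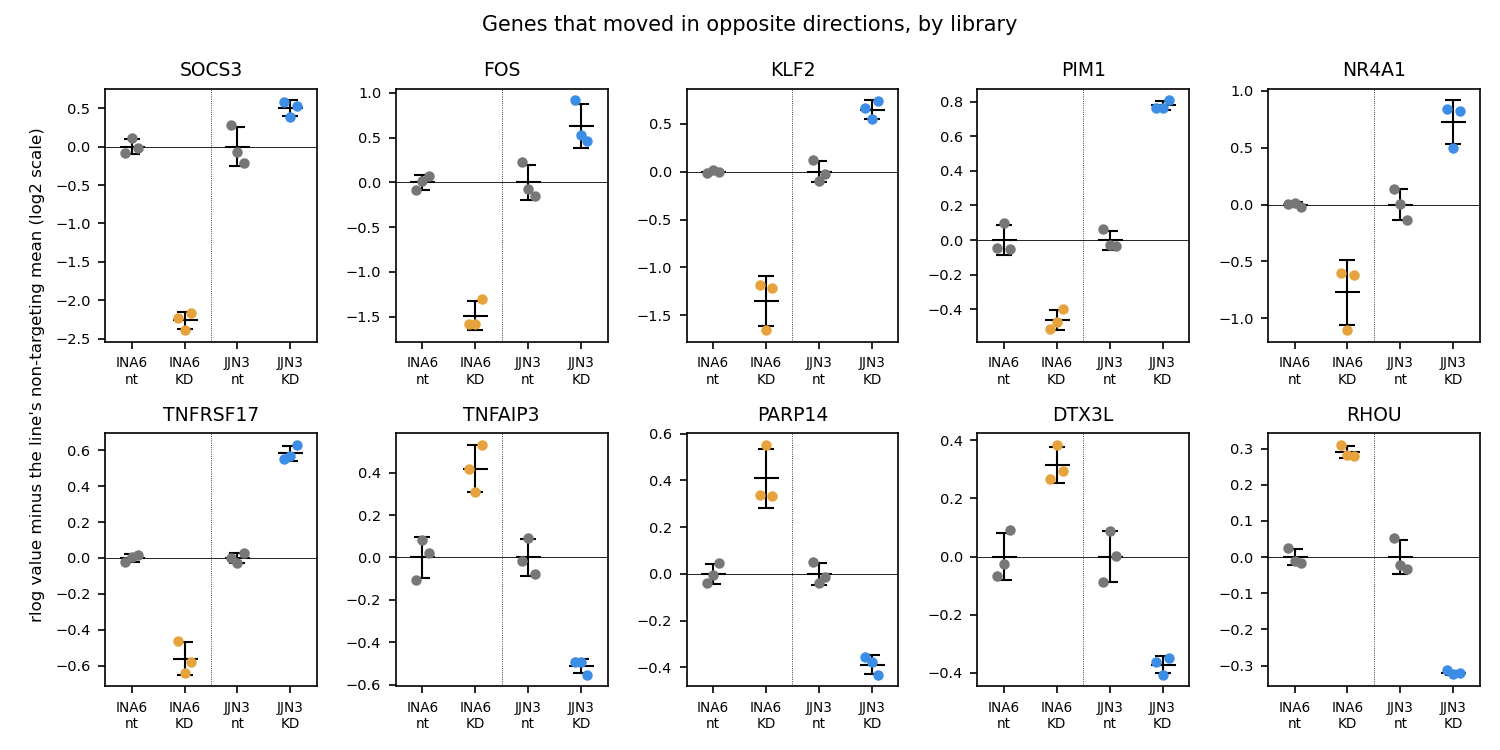
Level of 10 genes in each library, as the rlog value minus the mean of the line's non-targeting (nt) libraries, for nt and knockdown (KD) libraries of INA6 and JJN3; points are libraries, bars the mean and SD, and the vertical axis differs by panel. The first 6 genes lie below 0 in INA6 and above 0 in JJN3 after knockdown, and TNFAIP3, PARP14, DTX3L and RHOU lie the other way, with changes such as 0.42 and −0.51 for TNFAIP3.

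Of the genes that rose in INA6 and fell in JJN3, TNFAIP3 and PARP14 came first by the naming rule. TNFAIP3, the ubiquitin-editing protein A20 that limits NF-kappaB signalling (chromosome 6, 137866349 to 137883312), read 6.52, 6.71 and 6.65 in INA6 controls and 7.05, 6.94 and 7.16 after knockdown. In JJN3 it read 12.72, 12.84 and 12.67 and 12.25, 12.25 and 12.19. The arms were separate in both lines, and changes of 0.42 and −0.51 differed by 0.93 (adjusted p = 2.09e-13). It overlaps the noncoding gene WAKMAR2. PARP14, an interferon-induced mono-ADP-ribosyltransferase (chromosome 3, 122680839 to 122730840), read 9.47, 9.50 and 9.55 against 9.84, 10.06 and 9.84 in INA6. Its JJN3 levels were 10.28, 10.19 and 10.22 against 9.87, 9.85 and 9.80. It changed by 0.41 and −0.39 (difference 0.80, adjusted p = 3.78e-13), and again no arms overlapped.

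DTX3L, a ubiquitin ligase, and PARP9, its binding partner, lie head to head and overlap on chromosome 3 (122564338 to 122575203 and 122527924 to 122564784), so their reads may be shared. DTX3L read 10.18, 10.22 and 10.34 in INA6 controls and 10.51, 10.63 and 10.54 after knockdown. It read 8.39, 8.57 and 8.48 and 8.12, 8.07 and 8.13 in JJN3. The rise was 0.32 and the fall −0.37 (difference 0.69, adjusted p = 7.74e-11). PARP9 changed by 0.60 in INA6 and by −0.17 in JJN3, and its JJN3 call was lost with quantile normalisation and without non-targeting replicate 1. The other genes named in this direction had changes of 0.38 and −0.41 in INA6 and JJN3 for CASKIN1, 0.29 and −0.32 for the small GTPase RHOU, 0.28 and −0.29 for the p38 kinase MAPK11, and 0.27 and −0.30 for LEF1, which carries Wnt signals to DNA. BCL9L, a coactivator of beta-catenin, changed by 0.24 and −0.38, MAGED1 by 0.50 and −0.27, RBM48 by 0.33 and −0.25, NRSN2 by 0.24 and −0.28, and NME4, a mitochondrial nucleoside diphosphate kinase, by 0.24 and −0.40. NME4 was the 1 of these 24 opposite genes that left its class in any setting, without INA6 non-targeting replicate 2.

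The promoters of PARP14, DTX3L and PARP9 are shown because the genes moved together and each window holds the core of the interferon-stimulated response element, GAAANNGAAA on either strand, printed in capitals. The stretches are of 120 bases, 5′ to 3′ on the gene's strand, from RefSeq on GRCh38.p14.
PARP14, chr3:122680719-122680838, plus strand: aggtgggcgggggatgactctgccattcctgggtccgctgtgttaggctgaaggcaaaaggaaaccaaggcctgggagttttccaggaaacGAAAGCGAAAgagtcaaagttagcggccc
DTX3L, chr3:122564222-122564341, plus strand: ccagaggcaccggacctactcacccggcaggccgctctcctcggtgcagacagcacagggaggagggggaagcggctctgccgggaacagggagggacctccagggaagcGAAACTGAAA
PARP9, chr3:122564301-122564420, minus strand: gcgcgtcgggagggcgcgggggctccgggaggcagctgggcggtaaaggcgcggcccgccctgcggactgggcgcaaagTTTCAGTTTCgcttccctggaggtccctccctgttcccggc
DTX3L and PARP9 share 1 match, read from opposite strands. Of windows from 250 bases before to 50 after a gene start, 2.84% of 12952 held the core, against 60% of 20 windows of the interferon list and 3.5% of 200 windows of the genes that rose in INA6 and fell in JJN3. The match is a description of letters and says nothing on binding.

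The interferon list as a whole did not share this pattern. Of 20 members tested, 8 rose and 3 fell in INA6, 5 rose and 9 fell in JJN3, and the interaction was positive for 8 and negative for 5. With a minimum mean of 5 the INA6 rises and the positive interactions were 5 each, and without INA6 non-targeting replicate 2 or JJN3 knockdown replicate 3 the negative interactions were 3. IFI6, an interferon-induced mitochondrial protein, fell in JJN3 only (−0.44 against −0.027), with a mean below 5 in at least 1 line. The medians of the list were −0.00647 in INA6 and −0.0519 in JJN3.

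A gene was called for 1 line only when its change passed in that line, the interaction passed, and in the other line the change did not pass and its 95% interval lay within 0.25 of 0. By this rule 603 genes rose (5.41%) and 553 fell (4.97%) in INA6 only, and 439 rose (3.94%) and 558 fell (5.01%) in JJN3 only. With an interval within 0.15 of 0 the 2 totals were 587 and 356, and with a change of at least 0.25 they were 690 and 533. Under the last condition the opposite genes were 53 with INA6 down and 10 with INA6 up, so most opposite movements were below that size in at least 1 line. Genes named by size for 1 line only were chosen with separate arms in the line that moved, so that separation adds no evidence.

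Among the falls seen in INA6 only, EGR1 had the largest change of those named. EGR1, a zinc finger factor induced within minutes by ERK signalling (chromosome 5, 138465479 to 138469303), read 12.23, 11.88 and 12.10 in INA6 controls and 10.33, 9.89 and 10.29 after knockdown. In JJN3 it read 9.25, 8.92 and 8.72 and 9.17, 8.98 and 8.96. The INA6 arms were far apart and the JJN3 arms overlapped, with changes of −1.90 and 0.069 (difference −1.97, adjusted p = 7.11e-20). EGR1 left the class in 5 of 18 settings, all through the JJN3 value; without JJN3 non-targeting replicate 1, the highest control, the rise in JJN3 was called as well.

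Its promoter is shown for the 2 CArG boxes, the sites that serum response factor is known to read, which a script found in this window and which are printed in capitals.
EGR1, chr5:138465319-138465438, plus strand: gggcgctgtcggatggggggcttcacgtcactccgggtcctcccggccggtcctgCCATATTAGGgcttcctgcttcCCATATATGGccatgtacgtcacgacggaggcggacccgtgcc
CArG boxes were found in 1.11% of all 12952 windows, in 8.7% of 23 windows of the immediate early list and in 0.823% of 729 windows of the genes that fell in INA6 only.

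JCHAIN, the joining chain of polymeric antibody (chromosome 4, 70655541 to 70666508), read 15.75, 15.71 and 15.70 in INA6 controls and 15.01, 14.72 and 14.74 after knockdown. In JJN3 it read 15.84, 15.87 and 15.91 and 15.92, 15.88 and 15.86. The 12 libraries thus differ by arm in INA6 alone, with changes of −0.89 and 0.015 (difference −0.91, adjusted p = 4.82e-16). INSIG1, which holds the sterol sensor in the endoplasmic reticulum, read 13.11, 13.10 and 13.10 in INA6 controls and 12.36, 11.96 and 12.24 after knockdown. Its JJN3 levels were 15.13, 15.16 and 15.06 and 15.16, 15.24 and 15.19. The fall in INA6 was −0.92 and the JJN3 change 0.083, which 3 settings called as a rise. FADS2, the delta-6 desaturase, changed by −1.05 in INA6 and −0.042 in JJN3; it overlaps its neighbour FADS1. DUSP1, a phosphatase of MAP kinases, changed by −0.99 against −0.056, RGS1, a brake on G protein signals, by −1.03 against 0.081, and TSC22D3, a glucocorticoid-induced leucine zipper protein, by −0.83 against 0.034. HBEGF, an EGF receptor ligand, changed by −1.04 against −0.0008, PPFIA4 by −0.96 against −0.039 and HEG1 by −0.90 against 0.092.

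Rises in INA6 only were led by PHLDA1, a pleckstrin-domain protein. It read 7.14, 7.27 and 7.02 in INA6 controls and 8.02, 7.98 and 7.99 after knockdown. In JJN3 it read 10.36, 10.28 and 10.28 and 10.38, 10.33 and 10.36. The rise of 0.85 in INA6 stood against 0.053 in JJN3 (difference 0.80, adjusted p = 7.33e-12). RUNX1, a haematopoietic transcription factor, read 10.28, 10.21 and 10.33 and 10.91, 10.88 and 10.97 in INA6. Its JJN3 levels were 8.05, 7.94 and 7.95 and 7.99, 7.85 and 7.83, and without JJN3 knockdown replicate 1 the JJN3 change of −0.091 was called as a fall. SPRED2, an inhibitor of Ras and ERK signalling, rose by 0.62 in INA6 against 0.062 in JJN3. MARCKSL1, an actin-binding protein, rose by 0.71 against 0.056, and CYP27B1, which activates vitamin D, by 0.58 against −0.076. FTL, the ferritin light chain, rose by 0.62 against 0.091 and left the class in 5 settings. The remaining genes named, ZNF777, SNHG3, RBM14 and CHN1, rose by 0.63, 0.60, 0.58 and 0.58 in INA6.

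**Figure D3:**
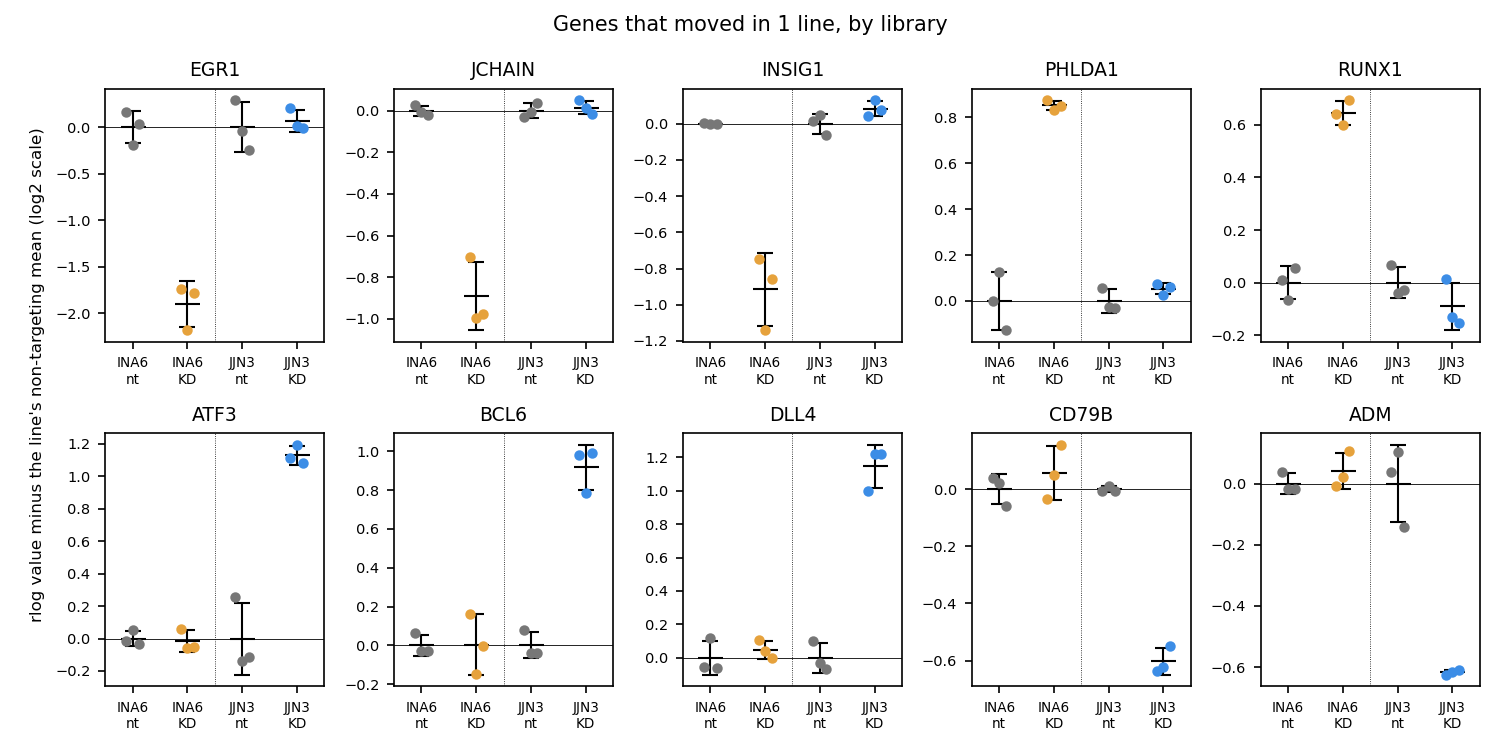
Level of 10 genes in each library, drawn as rlog value minus the mean of the line's non-targeting (nt) libraries; points are libraries, bars the mean and SD, KD is knockdown, and the vertical axis differs by panel. The first 5 genes depart from 0 in INA6 and the last 5 in JJN3, for example JCHAIN at −0.89 in INA6 and DLL4 at 1.15 in JJN3.

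In JJN3 only, the rises included ATF3, BCL6 and DLL4. ATF3, a stress-induced factor (chromosome 1, 212565407 to 212620777), read 7.06, 6.66 and 6.69 in JJN3 controls and 7.92, 8.00 and 7.89 after knockdown. In INA6 it read 8.46, 8.53 and 8.44 and 8.54, 8.42 and 8.43. INA6 arms overlapped and JJN3 arms did not, with changes of 1.13 in JJN3 and −0.017 in INA6 (difference −1.15, adjusted p = 8.54e-15). BCL6, the repressor that holds germinal centre B cells and opposes plasma cell fate (chromosome 3, 187721377 to 187745468), read 6.10, 5.98 and 5.98 and 7.00, 6.80 and 7.01 in JJN3. Its INA6 levels were 8.89, 8.79 and 8.79 and 8.99, 8.68 and 8.82, with overlapping arms. The rise in JJN3 was 0.92 (SE 0.0613) against 0.0043 (SE 0.0647) in INA6 (adjusted p of the difference 6.54e-12). DLL4, a ligand of Notch receptors (chromosome 15, 40929340 to 40939073), read 6.88, 6.75 and 6.72 and 7.78, 8.00 and 8.01 in JJN3. In INA6 it read 3.11, 3.28 and 3.10 and 3.27, 3.21 and 3.16, just above the minimum level of 3, where rlog shrinkage is strong. Its changes were 1.15 in JJN3 and 0.048 in INA6 (difference −1.10, adjusted p = 2.97e-16).

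The BCL6 promoter is shown for its STAT sites, TTCNNNGAA, of which 1 lies in the stretch before the start and is printed in capitals, and 4 in the whole window.
BCL6, chr3:187745469-187745588, minus strand: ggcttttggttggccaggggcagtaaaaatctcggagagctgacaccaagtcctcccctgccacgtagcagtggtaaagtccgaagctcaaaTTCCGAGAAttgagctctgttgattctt
STAT sites were present in 6.05% of all windows, 6.83% of 556 windows of the genes that rose in JJN3 only and 19% of 21 windows of the interleukin 6 and STAT3 target list.

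FOSB, a partner of JUN in AP-1, rose by 0.88 in JJN3 against 0.0051 in INA6. SLC3A2, the heavy chain of amino acid transporters, rose by 0.53 against −0.057, and the core histone H2BC4 by 0.52 against −0.096. Rises of 0.73, 0.63, 0.59, 0.55 and 0.53 were found for RIPOR2, ANKRD33B, CHPF2, ABCB6 and ADAM19. Falls in JJN3 only included CD79B, the signalling subunit of the B cell receptor, which read 8.58, 8.59 and 8.58 in JJN3 controls and 7.95, 7.96 and 8.03 after knockdown. In INA6 it read 10.89, 10.87 and 10.79 and 10.82, 10.90 and 11.01, with overlapping arms, and the changes were −0.60 and 0.057 (difference 0.66, adjusted p = 1.07e-10). ADM, the hypoxia-inducible peptide adrenomedullin, read 10.65, 10.72 and 10.47 and 9.99, 10.00 and 10.00 in JJN3. Its INA6 levels were 10.81, 10.75 and 10.75 and 10.77, 10.79 and 10.88, so the 3 knockdown libraries were low in JJN3 alone (changes −0.62 and 0.04, adjusted p of the difference 1.6e-11). The other falls named were of −0.999 for ZNF358, −0.60 for RBMS2, −0.58 for TRIM62, −0.55 for AJM1, −0.55 for AKIP1, −0.55 for ZKSCAN4 and −0.54 for IKZF4.

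A further 562 genes (5.05%) were called in both lines in the same direction by unequal amounts, and 192 (1.72%) with a called interaction met none of these definitions. The 5 named by the rule all fell in both lines, more in INA6. ALDOC, an aldolase, changed by −1.19 in INA6 and by −0.11 in JJN3, P4HA1, a collagen prolyl hydroxylase, by −1.11 and −0.20, and CA9, a carbonic anhydrase, by −1.06 and −0.15; the JJN3 value of CA9 left that class in 7 of 18 settings. FADS1, the delta-5 desaturase, changed by −0.97 and −0.14, and DEPP1 by −1.32 and −0.33. BNIP3L, a receptor for the removal of mitochondria, named from its list, changed by −1.02 and −0.32. Of 34 glycolysis and hypoxia genes tested, 17 fell in INA6 and 20 in JJN3, with 10 interactions positive and 9 negative, and medians of −0.137 and −0.125.

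The immediate early and heat shock list had the widest gap between lines. In INA6 14 of 18 members fell and 1 rose; in JJN3 8 rose and 6 fell. The interaction was negative for 15 and positive for 1, and the medians were −0.887 in INA6 and 0.034 in JJN3. Beyond FOS, KLF2, NR4A1, EGR1, DUSP1, ATF3 and FOSB, the AP-1 subunit JUNB changed by −0.98 in INA6 and −0.17 in JJN3, the activation antigen CD69 by −1.58 and −0.17, and BTG2, which slows proliferation, by −1.22 and −0.56. Single libraries stood out in this list: among the JJN3 controls replicate 1 was the highest for 15 of 18 members and replicate 3 the lowest for 16, and INA6 knockdown replicate 2 was the lowest of its arm for 13. Without JJN3 non-targeting replicate 1, JJN3 had 9 rises and 3 falls and a median of 0.118. Without JJN3 non-targeting replicate 3 it had 7 rises and 7 falls and a median of −0.0297, of the other sign. The median also turned negative with quantile normalisation (−0.0076) and without JJN3 knockdown replicate 1 (−0.000222). In each of these settings, as without INA6 knockdown replicate 2, the interaction counts were 15 and 1.

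Among targets of interleukin 6 and STAT3, 19 tested, 10 fell and 2 rose in INA6 (4 rose with median centring), whereas 9 rose and 6 fell in JJN3, and the interaction was negative for 10 and positive for 1. SOCS3, PIM1 and FOS were opposite, and BCL6 rose in JJN3 only, as given above. MYC fell in both lines (−0.52 and −0.40), with no called interaction (difference −0.12, 95% interval −0.22 to −0.011). The signalling genes upstream differed less as a list: of 15 tested, 3 had a positive (5 with quantile normalisation) and 2 a negative interaction. That is 33.3% called, near the 30.0% of all genes. JAK1, a kinase of the gp130 receptor, fell by 0.27 in INA6 and rose by 0.19 in JJN3 (adjusted p of the difference 4.52e-07). STAT5A fell in JJN3 only (−0.53 against −0.08), and PTPN6, the phosphatase SHP-1, in INA6 only (−0.32 against 0.047). Among regulators of ERK signalling, 11 tested, 4 rose and 4 fell in INA6 and 4 rose and 2 fell in JJN3. Their interactions were positive for 3 and negative for 2 (45.5% called, beside 30.0% of all genes). The phosphatase DUSP5 fell by 0.40 in INA6 and rose by 0.34 in JJN3, and SPRY1 fell in INA6 only (−0.30 against 0.052). PHLDA1 and SPRED2, of the same list, rose in INA6 only, as given above.

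Plasma cell identity genes had a lower median change in INA6 than in JJN3, but their members did not move as 1 group. Of 21 tested, 13 fell and 6 rose in INA6, while 12 rose and 3 fell in JJN3. The medians were −0.191 and 0.138, the interaction was negative for 12 and positive for 2, and 8 members were opposite. PRDM1, the repressor that commits B cells to secretion, changed by −0.72 in INA6 and 0.28 in JJN3 (adjusted p of the difference 6.08e-18). POU2AF1, a coactivator at immunoglobulin promoters, changed by −0.33 and 0.40, and CXCR4, the receptor that keeps plasma cells in marrow, by −0.19 and 0.26. IRF4, CD38, XBP1 and SDC1, members of the list given here after their values were seen, were not called opposite. IRF4 rose in both lines, by 0.29 and 0.45 (adjusted p of the difference 0.0261, lost without INA6 non-targeting replicate 3, INA6 knockdown replicate 2 or 3, JJN3 non-targeting replicate 2 or JJN3 knockdown replicate 2), and CD38, an ectoenzyme, changed by 0.25 and 0.45 with no called interaction (adjusted p 0.0655). XBP1 changed by −0.12 and 0.016, again without one (adjusted p 0.0611). The CD38 interaction was called without INA6 non-targeting replicate 3, JJN3 non-targeting replicate 3 or JJN3 knockdown replicate 3, and that of XBP1 without INA6 knockdown replicate 1 or JJN3 non-targeting replicate 1. SDC1, the surface proteoglycan CD138, fell in JJN3 only (−0.50 against −0.082), so its difference of 0.42 had the sign opposite to that of PRDM1. In the B cell list, of 7 members tested, 1 rose in INA6 and 3 rose and 2 fell in JJN3, with 2 positive and 3 negative interactions; CD79B, given above, was among the falls in JJN3. CIITA, the activator of MHC class II genes, rose in JJN3 only (0.61 against 0.084), as did BACH2 (0.39 against 0.098), which left that class in 3 of 18 settings. Among NF-kappaB and Notch genes, besides TNFAIP3 and DLL4, NFKBIA, the inhibitor of NF-kappaB, rose by 0.13 in INA6 and 0.61 in JJN3, and HES6, of the HES family, by 0.21 and 0.79; the INA6 part left its class in 5 and 3 settings. Of 15 NF-kappaB targets tested, 7 rose and 4 fell in INA6 and 7 rose and 3 fell in JJN3. Their interactions were positive for 2 and negative for 5 (46.7% called, beside 30.0% of all genes). Of 12 Notch genes tested, 4 rose and 2 fell in INA6 and 8 rose and 3 fell in JJN3. Here 3 interactions were positive and 5 negative (66.7% called). Over the settings, negative interactions ran from 4 to 6 for NF-kappaB and from 2 to 6 for Notch. NF-kappaB falls in INA6 ran from 1 to 4. Notch falls ran from 0 to 3 in INA6 and from 0 to 4 in JJN3. The Notch rises were 2 in INA6 with quantile normalisation and without INA6 non-targeting replicate 1 or 3 or knockdown replicate 2. They were 5 in JJN3 with quantile normalisation or a minimum mean of 5.

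**Figure D4:**
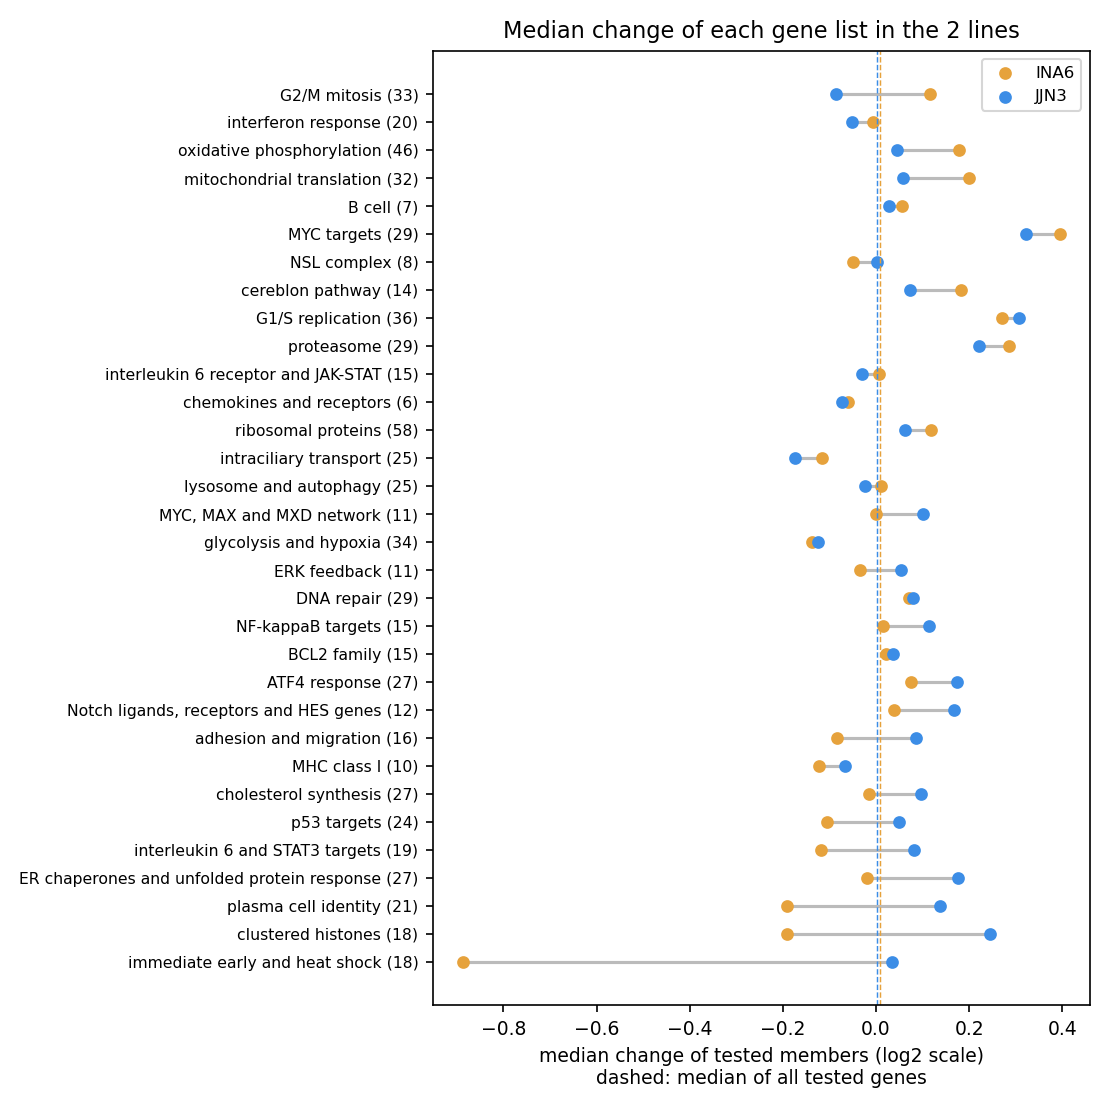
Median change (log2 scale, horizontal axis) of the tested members of each gene list in INA6 and JJN3; the number of tested members is in brackets and dashed lines mark the median of all tested genes. Immediate early genes (−0.887 and 0.034), clustered histones (−0.191 and 0.244) and plasma cell identity genes (−0.191 and 0.138) stand furthest apart with INA6 lower, and G2/M genes (0.117 and −0.0852) with INA6 higher.

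Clustered histone genes split by line. Of 18 tested, 12 fell and 1 rose in INA6, 11 rose and 0 fell in JJN3, and the interaction was negative for 15 and positive for 0, with 8 opposite members. At an unadjusted p below 0.05, 0 fell in JJN3 and 0 had a positive interaction. H2BC12, a core histone, read 8.79, 8.78 and 8.76 in INA6 controls and 8.61, 8.61 and 8.54 after knockdown. In JJN3 it read 10.73, 10.61 and 10.75 and 11.18, 11.22 and 11.21. The small INA6 change of −0.19 and the JJN3 rise of 0.51 were each larger than the spread of the arms (difference −0.70, adjusted p = 4.18e-12). H3C4 changed by −0.21 and 0.47. Most clustered histone transcripts lack a poly(A) tail and the libraries were made from poly(A) RNA, so their levels also depend on how much escaped that selection, which was not tested. Histone paralogs are alike in sequence, and reads may be split among them.

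The H2BC12 promoter is shown for its octamer, ATTTGCAT on either strand and printed in capitals, an element known from histone H2B promoters.
H2BC12, chr6:27146859-27146978, minus strand: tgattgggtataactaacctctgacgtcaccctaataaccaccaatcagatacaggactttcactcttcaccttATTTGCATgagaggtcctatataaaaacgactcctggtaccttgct
The octamer was in 1.38% of all 12952 windows, 55% of 20 windows of the histone list and 4.72% of 318 windows of the genes that fell in INA6 and rose in JJN3.

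Mitotic genes had positive interactions. Of 33 G2/M genes tested, 14 rose (22 with median centring) and 1 fell in INA6, 0 rose and 10 fell in JJN3, and the interaction was positive for 17 and negative for 0, with medians of 0.117 and −0.0852. At an unadjusted p below 0.05, 0 rose in JJN3 and 0 had a negative interaction. PLK1, the polo-like kinase of mitotic entry (chromosome 16, 23678889 to 23690367), read 11.52, 11.47 and 11.49 in INA6 controls and 11.77, 11.94 and 11.94 after knockdown. Its JJN3 levels were 10.34, 10.39 and 10.43 and 10.25, 10.15 and 10.12, and the arms were separate in both lines (changes 0.39 and −0.21, adjusted p of the difference 1.07e-10). AURKA, the spindle pole kinase, changed by 0.17 and −0.23, and CDC20, an activator of the anaphase-promoting complex, rose in INA6 only (0.40 against −0.079). CCNB1, cyclin B1, changed by 0.33 and −0.15, but its JJN3 fall was lost in 6 settings. G1/S genes did not split in this way: 32 of 36 rose in INA6 and 28 in JJN3, and 6 interactions were positive and 6 negative.

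The PLK1 promoter is shown for the cell cycle homology region (CHR), TTTGAA on either strand and printed in capitals, which the DREAM and MuvB complexes are known to read.
PLK1, chr16:23678769-23678888, plus strand: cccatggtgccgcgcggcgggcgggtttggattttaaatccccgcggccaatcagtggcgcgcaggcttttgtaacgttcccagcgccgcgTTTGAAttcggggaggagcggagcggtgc
The 6-base CHR letters occurred in 10.4% of all windows, 62.9% of 35 windows of the G2/M list, 11.5% of 200 windows of the genes that rose in INA6 and fell in JJN3, and 15.1% of those with the reverse change.

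**Figure D5:**
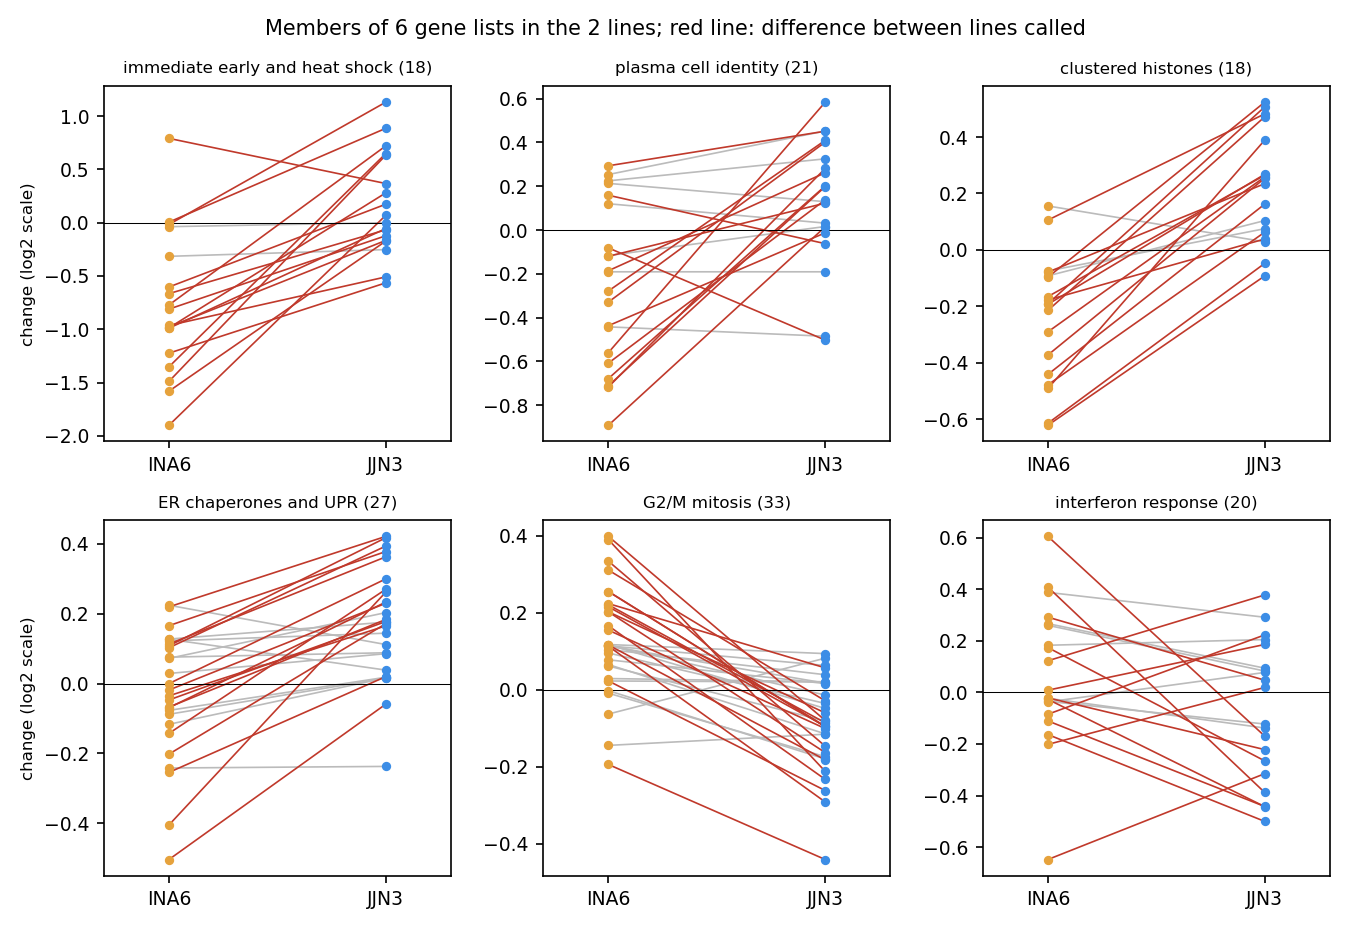
Change (log2 scale, vertical axis) of every tested member of 6 gene lists in INA6 and JJN3, joined by a line that is red where the interaction was called; UPR is the unfolded protein response and the vertical axis differs by panel. Lines climb from INA6 to JJN3 for 15 called immediate early genes, 12 plasma cell genes, 15 histones and 16 ER chaperone genes, and descend for 17 called G2/M genes.

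Chaperones and folding genes of the endoplasmic reticulum rose mainly in JJN3. Of 27 tested, 17 rose and 1 fell there, against 8 rises and 7 falls in INA6, and the interaction was negative for 16 and positive for 0 (0 at an unadjusted p below 0.05). The INA6 rises were 3 or 4 with quantile normalisation, with the replicate block, and without INA6 knockdown replicate 2 or any 1 of the 3 INA6 controls. HSPA5, the chaperone BiP (chromosome 9, 125234853 to 125241343), read 14.77, 14.85 and 14.96 in INA6 controls and 14.74, 14.67 and 14.73 after knockdown, its arms separated by a narrow gap. In JJN3 it read 13.60, 13.57 and 13.61 and 13.85, 13.84 and 13.89, with separate arms. The rise in JJN3 was 0.27 and the fall in INA6 −0.14, of which the latter was lost without INA6 non-targeting replicate 3 or knockdown replicate 2. HERPUD1, which serves degradation of misfolded proteins, changed by −0.41 in INA6 and 0.26 in JJN3, MANF, a secreted stress factor, by −0.20 and 0.17, and EDEM1, a lectin of the same disposal route, fell in INA6 only (−0.50 against −0.059). Among 27 ATF4 target genes, 6 rose in INA6 (11 with median centring) and 19 in JJN3, and 9 interactions were negative and 3 positive. SESN2, a sensor of leucine, rose in JJN3 only (0.44 against −0.091), and SLC7A5, the light chain of the transporter SLC3A2 serves, rose by 0.46 there against −0.11 in INA6, where the fall was lost in 6 settings.

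The HSPA5 promoter is shown for the ER stress element, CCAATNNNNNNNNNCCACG, printed in capitals, which ATF6 and NF-Y are known to read.
HSPA5, chr9:125241344-125241463, minus strand: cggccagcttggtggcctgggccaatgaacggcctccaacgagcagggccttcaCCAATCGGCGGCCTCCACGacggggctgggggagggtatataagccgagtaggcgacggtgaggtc
The element was in 0.124% of all windows and in 29% of 31 windows of the chaperone list.

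Sterol and lipid genes differed in the same sense as the chaperones. Of 27 tested, 7 rose and 7 fell in INA6 and 14 rose and 4 fell in JJN3, with 12 interactions negative and 0 positive (0 at an unadjusted p below 0.05). INA6 rises were 4 with quantile normalisation and without INA6 non-targeting replicate 1 or 2 or knockdown replicate 2, INA6 falls were 4 without that knockdown library, and JJN3 rises were 9 with quantile normalisation. LSS, lanosterol synthase, rose in JJN3 only (0.36 against −0.027). SREBF1, the master factor of fatty acid synthesis, fell by 0.42 in INA6 and rose by 0.15 in JJN3, the latter lost in 2 settings. Of 24 p53 targets tested, 10 fell and 3 rose in INA6 and 9 rose and 7 fell in JJN3, with 11 negative and 5 positive interactions. CDKN1A, the inhibitor p21, fell by 0.25 in INA6 and rose by 0.31 in JJN3 (adjusted p of the difference 2e-08). Among BCL2 relatives, 15 tested, 6 rose and 5 fell in INA6 and 4 rose and 4 fell in JJN3. Their interactions were positive for 3 and negative for 3 (40% called, beside 30.0% of all genes). BAX, an effector of death, rose in INA6 only (0.29 against −0.096), and BCL2 changed by −0.53 and −0.15. BMF, of the same list, fell in INA6 only, but its interaction was not called with quantile normalisation. MXD4, an antagonist of MYC, fell by 0.53 in INA6 and rose by 0.26 in JJN3.

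Mitochondrial genes had a higher median change in INA6. Interactions called in either direction were about as frequent as among all genes, but in these lists most of them were positive. Of 46 oxidative phosphorylation subunits tested, 28 rose and 1 fell in INA6 and 12 rose and 5 fell in JJN3, with medians of 0.178 and 0.0455 and 14 positive and 1 negative interactions. The positive interactions were 23 without INA6 knockdown replicate 1, and the JJN3 falls 2 or 3 in 6 settings, among them without JJN3 non-targeting replicate 2 or 3 or knockdown replicate 2. The complex I subunit NDUFS7 rose in INA6 only (0.51 against 0.023), as did UQCRH of complex III (0.38 against −0.095). Of 32 mitochondrial translation genes tested, 27 rose and 0 fell in INA6 and 13 rose and 4 fell in JJN3, with 10 interactions positive (17 without INA6 knockdown replicate 1) and 0 negative. At an unadjusted p below 0.05, 0 fell in INA6 and 1 had a negative interaction. Interactions in either direction were called for 32.6% of the oxidative phosphorylation list and 31.2% of the translation list, beside 30.0% of all genes. Of all genes, 15.6% had a positive and 14.4% a negative interaction. MRPS15, a subunit of the small mitochondrial ribosome, rose by 0.31 in INA6 and fell by 0.23 in JJN3. MRPL11, of the large subunit, changed by 0.19 and −0.24.

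Of 16 adhesion and migration genes tested, 2 rose and 7 fell in INA6. In JJN3, 8 rose (5 with quantile normalisation) and 4 fell. Among all genes, 26.4% rose and 23.5% fell in INA6, and 25.9% rose and 25.6% fell in JJN3. Interactions were positive for 3 and negative for 7 (62.5% called, beside 30.0% of all genes). Of all genes, 15.6% had a positive and 14.4% a negative one. CADM1, a cell adhesion molecule, changed by −0.15 in INA6 and 0.27 in JJN3. Of 6 chemokines and receptors tested, 2 had a positive and 1 a negative interaction (50% called). CXCL16, a chemokine, fell in JJN3 only (−0.49 against −0.099), and CXCR3, a chemokine receptor, rose in INA6 only (0.28 against −0.0075).

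The proteasome and MYC targets rose in both lines. Of 29 proteasome members 26 rose in INA6 and 25 in JJN3, and 2, PSMD7 and PSMD11, had a called interaction (6.9%), 1 in each direction; without INA6 knockdown replicate 1 there were 4 positive. MYC targets rose for 28 of 29 members in INA6 and 25 in JJN3, with 8 positive interactions and 0 negative (0 at an unadjusted p below 0.05). That is 27.6% of the list with a called interaction, all positive. Of all genes, 30.0% had a called interaction in either direction and 15.6% a positive one. The 8 became 5 with the replicate block and without INA6 non-targeting replicate 3, JJN3 non-targeting replicate 1 or JJN3 knockdown replicate 2, and 3 without INA6 knockdown replicate 2. Among 25 intraciliary transport genes 12 fell in INA6 and 15 in JJN3 (9 with a minimum mean of 5), with 5 positive interactions (3 without INA6 non-targeting replicate 2) and 1 negative. Among lists with at least 3 members tested, shares of called interactions ran from 88.9% of immediate early genes and 83.3% of histones down to 6.9% of proteasome genes, beside 30.0% of all genes tested. The lists were chosen with earlier results of these data known, so these shares describe the lists and test nothing.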

How the data were processed

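RNA was captured as poly(A) and copied with random hexamers, per the labels' protocols; whether libraries kept strand is not stated there. The tools named are DESeq2, HTSeq, Bowtie2 and Trim Galore and the build is hg38, per the submitters' processing notes. The authors deposited log2-scale rlog values, 1 table per line, normalised separately. No counts were analysed, so depth is unknown and no counting interval was computed.

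Here, limma 3.58.1 in R 4.3.3 (lmFit, then eBayes with a trend) was fitted in each line to genes with a mean of at least 3 (12511 in INA6, 12282 in JJN3), without a block. The interaction was the difference of the 2 changes divided by its standard error (both lines' squared errors added, then the root), and the degrees of freedom of both fits were added. All adjusted p-values are two-sided limma or interaction p-values with Benjamini-Hochberg adjustment over all genes tested, with 0.05 as the threshold and n = 3 per arm. An exact permutation test of 1 gene with 3 against 3 libraries cannot go below 0.1, so none was used. Standard errors of the named differences lay between 0.0530 and 0.114. The procedure was tested on simulated data.

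Named genes were the 12 per opposite direction with the largest smaller change, 10 per direction for each line alone, 5 unequal in the same direction, the NSL subunits and up to 4 per gene list, with no overlap of arms where a change was called; some of these are not reported here, and IRF4, XBP1, SDC1 and CD38 were added after their values were seen. The members and lists were chosen with earlier results of these data known. Alternatives were median centring, quantile normalisation, other minimum levels, the replicate number as a block, 1 fit over all libraries, and leaving out each library. Promoters and positions are from RefSeq (GRCh38.p14); 8976 of 11137 genes had a promoter window.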

Additional observations from a re-analysis of the deposited data

Results flagged for a closer look

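The following genes had a change that differed between the 2 lines by the interaction test over all 11137 genes. Values are the change in INA6 minus the change in JJN3 on the log2 scale, given as the result of that test with no explanation. Among genes that fell in INA6 and rose in JJN3 the difference was −2.76 for SOCS3, −2.12 for FOS, −2.00 for KLF2, −1.49 for NR4A1, −1.24 for PIM1, −1.14 for TNFRSF17, −1.06 for KRT8, −0.998 for PRDM1 and −0.98 for SULF2. In this class SGK1 had −0.96, with −0.93 for LGALS1, −0.88 for H1-2, −0.87 for TXNDC11, −0.79 for MXD4, −0.74 for DUSP5, −0.73 for POU2AF1, −0.70 for H2BC12 and −0.69 for H3C4. In this class HERPUD1 had −0.67, with −0.57 for SLC7A5, −0.57 for CDKN1A, −0.57 for SREBF1, −0.46 for JAK1, −0.45 for CXCR4, −0.42 for CADM1, −0.41 for HSPA5 and −0.37 for MANF. In this class OGT had −0.29. For genes that rose in INA6 and fell in JJN3 the difference was 0.93 for TNFAIP3, 0.80 for PARP14, 0.78 for CASKIN1, 0.77 for PARP9, 0.77 for MAGED1, 0.69 for DTX3L, 0.64 for NME4, 0.63 for BCL9L and 0.61 for RHOU. In this class PLK1 had 0.60, with 0.58 for RBM48, 0.58 for LEF1, 0.57 for MAPK11, 0.54 for MRPS15, 0.53 for NRSN2, 0.48 for CCNB1, 0.43 for MRPL11 and 0.40 for AURKA. Where the rise was called in INA6 only the difference was 0.80 for PHLDA1, 0.73 for RUNX1, 0.69 for ZNF777, 0.66 for CYP27B1, 0.65 for MARCKSL1, 0.58 for RBM14, 0.58 for SNHG3, 0.56 for SPRED2 and 0.53 for FTL. In this class CHN1 had 0.51, with 0.48 for NDUFS7, 0.48 for UQCRH, 0.48 for CDC20, 0.39 for BAX, 0.28 for CXCR3 and 0.26 for MCRS1. Where the fall was called in INA6 only the difference was −1.97 for EGR1, −1.11 for RGS1, −1.04 for HBEGF, −1.01 for FADS2, −0.999 for INSIG1, −0.99 for HEG1, −0.93 for DUSP1, −0.93 for PPFIA4 and −0.91 for JCHAIN. In this class TSC22D3 had −0.86, with −0.44 for EDEM1, −0.37 for PTPN6, −0.35 for SPRY1, −0.21 for PHF20 and −0.16 for KANSL3. Genes that rose in JJN3 only differed by −1.15 for ATF3, −1.10 for DLL4, −0.91 for BCL6, −0.88 for FOSB, −0.81 for RIPOR2, −0.66 for ANKRD33B, −0.64 for ADAM19, −0.64 for CHPF2 and −0.62 for H2BC4. In this class SLC3A2 had −0.59, with −0.53 for SESN2, −0.53 for CIITA, −0.43 for ABCB6, −0.39 for LSS and −0.29 for BACH2. Genes that fell in JJN3 only differed by 0.94 for ZNF358, 0.66 for CD79B, 0.66 for ADM, 0.55 for AJM1, 0.53 for AKIP1, 0.53 for RBMS2, 0.49 for ZKSCAN4, 0.46 for TRIM62 and 0.45 for STAT5A. In this class IKZF4 had 0.44, with 0.42 for SDC1, 0.42 for IFI6 and 0.39 for CXCL16. With the same direction in both lines the difference was −1.41 for CD69, −1.08 for ALDOC, −0.99 for DEPP1, −0.91 for P4HA1, −0.91 for CA9, −0.83 for FADS1, 0.82 for KANSL2, −0.81 for JUNB and −0.69 for BNIP3L. In this class BTG2 had −0.66, with −0.58 for HES6, −0.48 for NFKBIA, −0.39 for BCL2, 0.22 for HCFC1 and −0.16 for IRF4. Groups hold 3 libraries, too few for a test of single outlying libraries.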

How the results depend on the processing

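Counts of genes with opposite directions, of genes moving in 1 line only and of called interactions stayed within 1.5 times their value under median centring, quantile normalisation, other minimum levels, 1 fit over all 12 libraries and leaving out each library. Leaving out 1 library gave 120 to 176 genes up in INA6 and down in JJN3, 210 to 272 with the reverse, 860 to 1248 in INA6 only and 790 to 1038 in JJN3 only, and a KANSL2 difference of 0.79 to 0.87. Stricter definitions moved the counts. With an absolute change of at least 0.25 there were 10 opposite genes up in INA6, 53 down in INA6, 690 in INA6 only and 533 in JJN3 only. With the other line's interval within 0.15 of 0 there were 587 in INA6 only and 356 in JJN3 only. With the replicate number as a block there were 1521 positive and 1455 negative interactions, 150 and 246 opposite genes, and 1002 and 900 genes in 1 line only. After each arm's mean was removed per gene, control and knockdown libraries of the same number correlated at −0.179, −0.0678 and −0.296 in INA6. In JJN3 these values were 0.00452, −0.0140 and 0.00188. Whether the numbers pair the samples cannot be settled by such values from 3 libraries per arm. Of 24 named opposite genes 23 kept their class in all 18 settings, as did 23 of 40 named for 1 line only and 2 of 5 named for unequal changes. These genes were chosen from the same data for large changes and separate arms. Their counts therefore do not speak for the other genes of each class. Genes that left their class in 3 or more settings and are not marked so above were TRIM62 (5), RIPOR2 and ABCB6 (4 each), and ADAM19, IKZF4, UQCRH and CD69 (3 each). Of 171 named genes with a called interaction, 13 lost it in at least 1 setting, and 9 others gained it. THY1, with no call and a difference of −0.035, ranged from −0.0777 without JJN3 non-targeting replicate 2 to 0.0332 without JJN3 non-targeting replicate 1, where it changed sign. In each case the cause was not tested.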
